A study of Drosophila melanogaster with 18 samples.

Results

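Glutathione S-transferase (GST) and UDP-glycosyltransferase (UGT) genes were followed through the onset of metamorphosis in Drosophila melanogaster. Members were taken from the array annotation as probe sets with exactly 1 gene symbol that began with Gst and a capital letter or with Ugt and a digit, and each gene was read by its brightest probe set over all arrays. This gave 67 genes of the 10844 symbols on the array, which were read by 71 of the 13966 probe sets. Of these, 34 were GST genes (11 Delta, 14 Epsilon, 3 Omega, 1 Sigma, 3 Theta and 2 Zeta) and 33 were UGT genes. The rule that chose the genes used names only, but it was set with earlier results of these data known.

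The 18 Affymetrix Drosophila Genome Arrays held whole-animal RNA from 10 animals each, in 6 groups of 3 arrays. The w1118 strain served as control. The transgene of EcRi animals, hs-EcRi-11, has a heat-inducible promoter and makes double-stranded RNA against EcR, the receptor of the steroid hormone 20-hydroxyecdysone (20E), and these animals received 2 heat treatments of 1 h at 37 °C, at 24 and 18 h before pupariation. Both strains were collected at -4 h as wandering last-instar larvae with clear guts and at 0 and 4 h as prepupae, with times given relative to pupariation. The sources used here do not say whether controls were heat-treated, so RNA interference, strain and heat treatment cannot be told apart in these comparisons, and hs-EcRi-11 was a single transgenic line as far as the labels state. The replicate arrays came from separate collections of animals, and p-values measure the spread between them.

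GST enzymes join the tripeptide glutathione to reactive compounds, and several also act as peroxidases or isomerases. UGT enzymes transfer a sugar from a UDP-sugar to lipophilic compounds, in insects usually glucose. Both steps make foreign and endogenous compounds more soluble, and the larval midgut, fat body and Malpighian tubules are the classical sites of this chemistry in flies. The Drosophila GstD and GstE genes form tandem clusters, as do many UGT genes.

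Intensities below a floor of 91.6, the 20th percentile of all values, were set to that floor. Array medians of the deposited values, which the authors had already normalized, lay between 222 and 248. For 16 arrays the highest correlation with another array was 0.974 to 0.995, whereas control -4 h replicate 1 (0.9395) and EcRi 0 h replicate 1 (0.9329) stood apart, and values that they moved are also given without them. Neither of the 2 EcR probe sets differed between strains by 1.5-fold at any time, with log2 differences of -0.00 to 0.09 in the brighter one (387 to 573 over the arrays) and of -0.51, 0.39 and 0.36 at -4, 0 and 4 h in the dimmer one (152 to 324, adjusted p = 0.0669, 0.0976 and 0.0858), and whether they also read transcripts of hs-EcRi-11 was not tested. The paper gives other evidence on the knockdown. It reports that every EcRi animal arrested as an elongated prepupa, and it refers to strongly lowered EcR protein. On its Northern blot the 20E-induced E74A transcript was not expressed in EcRi animals. The 15 midgut markers summed to 9072 to 9690 in control and 74947 to 78454 in EcRi arrays at 4 h, and 15 of 15 were called higher in EcRi animals there, against 12 at 0 h and 3 at -4 h. The 7 salivary gland markers summed to 2923 to 3748 in control and 57591 to 61046 in EcRi arrays at 4 h, with 7 called higher at 0 and 4 h and 1 at -4 h. Fewer markers were called in the other lists: of 5 fat body genes 0, 0 and 3 (1 higher) at -4, 0 and 4 h, of 3 Malpighian tubule genes 0, 0 and 1 (lower), of 6 haemocyte genes 2, 3 and 2 (higher), of 5 imaginal disc genes 0, 1 and 2 (lower), of 3 muscle genes 0, 0 and 2 (higher), of 6 testis genes 0, 0 and 4 (lower) and of 4 nervous system genes 0 at all times, where Syn was below the floor on every array. Some of these markers are themselves described in the paper as regulated by 20E or EcR, among them Sgs and Jonah genes. In whole-animal RNA a change in the number of cells of a type and a change in marker RNA per cell cannot be told apart. The part of these marker differences in the values below was not tested.

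GST genes were detected more widely than UGT genes. Above the floor on all 18 arrays were 28 of 34 GST genes (82.4%) and 12 of 33 UGT genes (36.4%), beside 67.9% of all probe sets. On some arrays only, 5 GST and 17 UGT genes passed the floor, and 1 GST gene (GstD7) and 4 UGT genes (Ugt303B1, Ugt35E1, Ugt36E1 and Ugt49C1) were below it on every array, so no change in these 5 genes could be measured. The median over genes of the mean intensity was 281.3 in the GST and 88.7 in the UGT family, with 242.7 over all probe sets. Probe sets differ in how strongly they bind their target, so these values describe detection and not relative amounts of RNA. The brightest GST probe set was that of GstD1, whose enzyme is known to remove chloride from the insecticide DDT, with 6049 to 9429 over the 18 arrays, and the other GST genes with a mean above 1000 were GstO3, GstS1, GstE1 and GstE12. Ugt36D1 (1097 to 2459) and Ugt37D1 (1093 to 1737) were the only UGT genes with a mean above 1000. GstD1 did not pass the test at any time, with EcRi effects of -0.17, 0.04 and -0.09 (log2, EcRi minus control) at -4, 0 and 4 h, and 95% intervals of -0.33 to -0.00, -0.12 to 0.21 and -0.25 to 0.08, all within 1.5-fold.

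**Figure D1:**
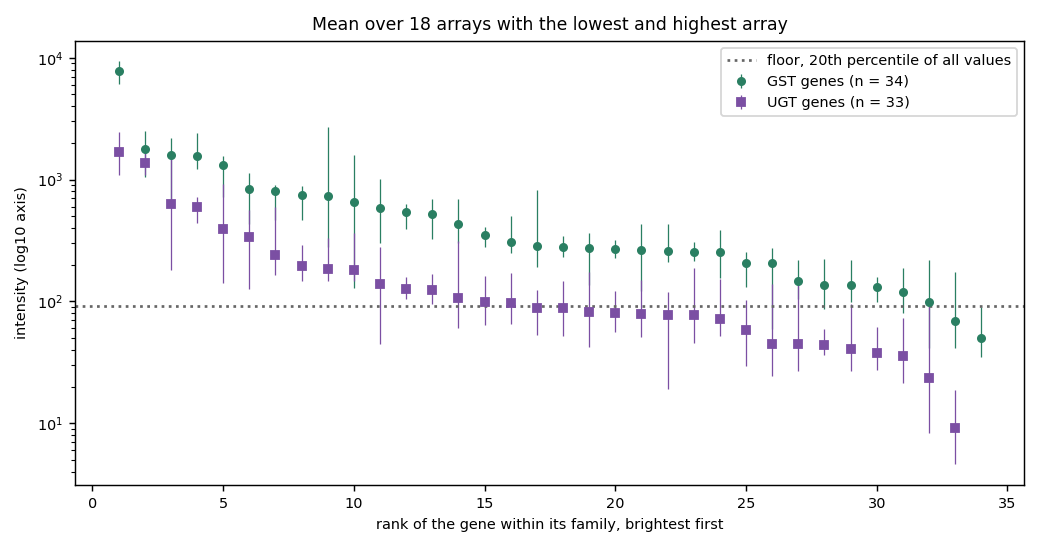
Mean intensity of each gene over 18 arrays (log10 axis), ranked within its family with the brightest gene first, for 34 GST (circles) and 33 UGT genes (squares). Vertical lines run from the lowest to the highest array and the dotted line is the floor of 91.6, which 17 of the UGT means and 2 of the GST means do not pass.

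A gene was called where the Benjamini-Hochberg adjusted p of limma's moderated test, over all 13966 probe sets, was under 0.10 and the difference reached 1.5-fold. At -4 h, 3 of 34 GST genes were called higher in EcRi animals and none lower, with 1 UGT gene of 33 higher and 2 lower, where 2.94% of all probe sets were called (1.78% higher and 1.17% lower). At 0 h, 3 GST genes were called lower and none higher, with 1 UGT gene higher and 3 lower, beside 7.69% of all probe sets (3.01% higher and 4.68% lower). At 4 h, 3 GST genes were called higher and 3 lower, with 1 UGT gene higher, beside 13.4% of all probe sets (4.33% higher and 9.08% lower). Called members made up 8.82%, 8.82% and 17.6% of the GST and 9.09%, 12.1% and 3.03% of the UGT family at -4, 0 and 4 h. Of the 32 GST genes with a mean above the floor 9.38%, 9.38% and 18.8% were called. Of the 16 such UGT genes 18.8%, 25% and 6.25% were called, beside 3.58%, 9.39% and 16.4% of all probe sets above the floor in mean. The median effects were 0.02, -0.03 and 0.01 in the GST and -0.06, 0.13 and 0.07 in the UGT family on the log2 scale, with 0 over all probe sets at each time. Leaving out both arrays that stand apart gave a UGT median of 0 at 0 h. Genes at the floor on all compared arrays enter these medians as 0, and 17 UGT means lay below the floor. With all arrays, the medians over the 16 UGT genes with a mean above the floor were -0.17, 0.25 and 0.26. Those over the 32 such GST genes were 0.04, -0.09 and -0.02, beside -0.03, -0.01 and 0.03 over all such probe sets. Called in at least 1 EcRi effect were 11 GST and 4 UGT genes, beside 16.8% of all probe sets. The 3 EcRi arrays lay wholly above the 3 control arrays in 7, 6 and 9 GST and in 4, 4 and 9 UGT genes at -4, 0 and 4 h (13.5%, 13.7% and 19.7% of all probe sets), and wholly below in 4, 10 and 9 GST and in 2, 4 and 0 UGT genes (11.8%, 15.7% and 21.2%).

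**Figure D2:**
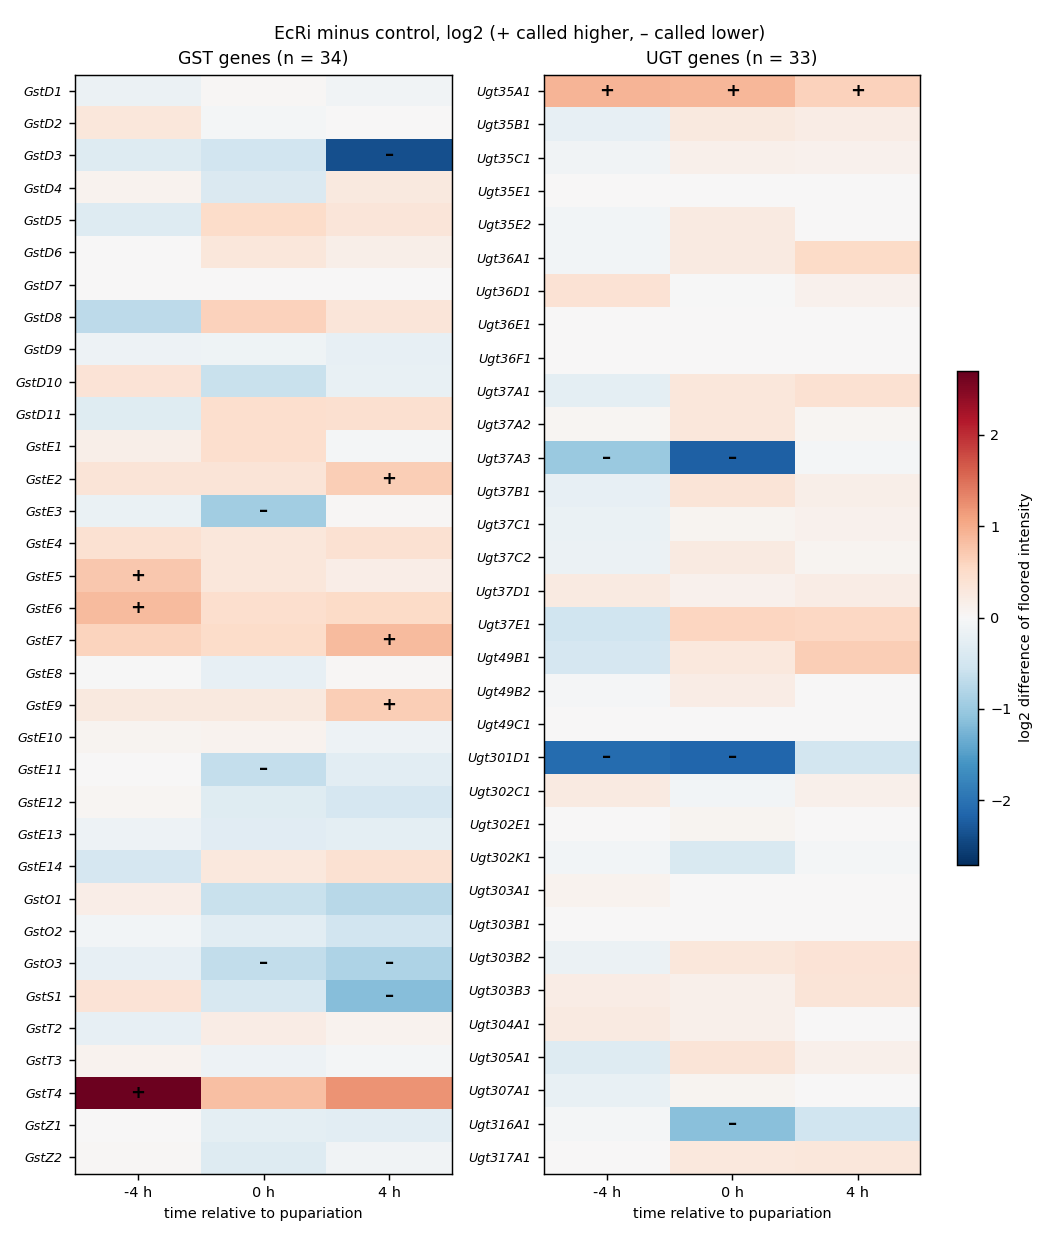
EcRi minus control difference of log2 floored intensity for 34 GST and 33 UGT genes (rows) at -4, 0 and 4 h (columns), red where EcRi animals were higher and blue where lower. Signs mark the 20 called effects, which lie in 11 GST genes, among them 7 GstE genes, and in 4 UGT genes.

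The largest difference in the GST family was that of GstT4, a Theta-class gene, which was higher in EcRi larvae. At -4 h its intensity was 129, 281 and 322 on the control and 1605, 1316 and 1370.3 on the EcRi arrays. Every EcRi larval array was above every control array of any time, and the groups did not overlap. The difference was 6.29-fold, a log2 change of 2.65 ± 0.59 (SE, n = 3 arrays a group, limma adjusted p = 0.0282). Without control -4 h replicate 1, the lowest array, it was 2.24 with an adjusted p of 0.112, and the adjusted p was also 0.112 without EcRi -4 h replicate 1 (0.0034 to 0.112 over all settings). Without both arrays that stand apart it was 2.24 with an adjusted p of 0.041. Newly formed prepupae gave 758, 471 and 288 in controls and 396, 1027 and 1392 in EcRi animals, with overlapping groups, and at 4 h the values were 237, 210.2 and 187 against 286, 1255 and 329. The EcRi arrays were thus all higher at 4 h but differed among themselves more than 4-fold, and neither difference was called (log2 0.82 ± 0.59, adjusted p = 0.398, and 1.22 ± 0.59, adjusted p = 0.189). Without the 2 arrays that stand apart the effect was 1.35 at 0 h and was called at 4 h, at an adjusted p of 0.0757. The other Theta genes measured, GstT2 and GstT3, had effects between -0.23 and 0.20 and were not called.

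GstD3, a Delta-class gene, rose after pupariation in control animals, and this rise was smaller in EcRi animals. Control arrays read 394, 380.1 and 403 at -4 h, 519, 496 and 433 at 0 h and then 2688, 2216 and 2366 at 4 h. EcRi arrays read 282, 322 and 317 at -4 h, 310.2, 370.5 and 338 at 0 h and then 351, 681 and 428 at 4 h. In controls all 4 h arrays were over 4 times the highest earlier array, whereas the highest EcRi array at 4 h read 681, and the groups at that time did not overlap. The rise from 0 to 4 h in controls was 5.02-fold (log2 2.33 ± 0.18, adjusted p = 2.1e-06), and only 1 GST gene rose and 1 fell in that interval, beside 1.95% and 2.66% of all probe sets. The corresponding EcRi change was 0.47 ± 0.18 and was not called (adjusted p = 0.29). At 4 h GstD3 was 5.17-fold lower in EcRi animals (log2 -2.37 ± 0.18, adjusted p = 1.3e-06), and the difference between the strains in their change from 0 to 4 h was -1.86 ± 0.26 (adjusted p = 0.00095). All of these 3 calls held under each of the other settings and with each array left out. It was also lower on every EcRi array at -4 and 0 h, by 0.36 and 0.51 on the log2 scale, without passing the test (adjusted p = 0.464 and 0.111).

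GstD3 lies within the GstD cluster on chromosome arm 3R, where the reference annotation places 11 GstD genes among 12 protein-coding genes. None of the other 10 GstD genes was called for an EcRi effect at any time, though GstD7 was below the floor on every array and GstD6 passed it on only 2, and no GstD gene was above 0 at all 3 times, while 2 (GstD3 and GstD9) were below. GstD4, next to GstD3 in the cluster, was the only member called for a change over time within EcRi animals, with 157, 201 and 217 at 0 h and 385, 240.0 and 286 at 4 h. That change of 0.65 ± 0.17 (adjusted p = 0.09) was at the edge of the limit and was lost when any of 14 of the 18 arrays was left out. It was also lost with a replicate block, with the compared arrays only, with the floor at the 40th percentile and under significance analysis of microarrays. Without the 2 arrays that stand apart it was 0.51 and was not called. GstD8 showed effects of -0.70 and 0.62 at -4 and 0 h that were not called, and these rest on the 2 arrays that stand apart, which read 826 and 785 where the other 16 arrays read 192 to 281 (without them -0.07 and -0.03). Neighbouring GstD and GstE genes are close in sequence, and how far their probe sets read each other's RNA was not tested.

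In the Epsilon class, 7 of 14 genes were called for at least 1 EcRi effect (16.8% of all probe sets), 5 of them higher and 2 lower. The lower genes were GstE3 and GstE11, both at 0 h. GstE3 read 1008, 926 and 879 in control and 432, 539 and 494 in EcRi prepupae at 0 h. The control arrays at 0 h were the highest of the series and all EcRi arrays at that time lay below them, without overlap. The difference was 1.93-fold (log2 -0.94 ± 0.22, adjusted p = 0.0187) and, without the 2 arrays that stand apart, -0.86 with an adjusted p of 0.0654. Control levels fell to 459, 377 and 378 by 4 h, a change of -1.22 ± 0.22 (adjusted p = 0.0043), whereas EcRi levels were 566, 582 and 621 at -4 h and 304, 657 and 355 at 4 h and overlapped the controls at both times. Both calls of GstE3 held under every setting tried, and the difference between strains in the change from 0 to 4 h, 0.98 ± 0.32, was not called (adjusted p = 0.186). For GstE11 the difference at 0 h was -0.64 ± 0.21 (adjusted p = 0.0821), from 1080.4 ± 50.2 in control and 728 ± 256 in EcRi animals (mean ± SD), with EcRi 0 h replicate 1 lowest at 433. It was lost when any of 12 of the 18 arrays was left out, with quantile normalization, with the compared arrays only and under significance analysis of microarrays, and was -0.30 without the 2 arrays that stand apart.

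The higher Epsilon genes were GstE5 and GstE6 at -4 h and GstE2, GstE7 and GstE9 at 4 h, all within 1 cluster. GstE5 read 143, 114 and 120.5 in control and 212, 218 and 194 in EcRi larvae, a difference of 1.66-fold (log2 0.73 ± 0.14, adjusted p = 0.0134). The lowest EcRi array was above all 9 control arrays of the series, and the call held with each array left out but not with the floor at the 40th percentile, where the change was 0.22. GstE6 was dim, with 97.9, 54.8 and 58.9 in control and 179, 180.5 and 152 in EcRi larvae, so only 1 of the control arrays passed the floor. Its log2 change of 0.86 ± 0.22 (adjusted p = 0.052) therefore depends on the floor, and it was lost at the 40th percentile (0.01) and without any 1 of 5 arrays: control -4 h replicates 1, 2 and 3 and EcRi -4 h replicates 1 and 2 (adjusted p of 0.108 to 0.198). In prepupae no control array of GstE6 passed the floor, whereas the EcRi arrays read 136, 127 and 116 at 0 h and 99.2, 217 and 103 at 4 h, group means of 1.37-fold and 1.42-fold over the floor on the log scale that were not called (adjusted p = 0.227 and 0.132). With the floor at the 5th percentile GstE6 was called higher at both prepupal times (1.39, adjusted p = 0.0038, and 1.58, adjusted p = 0.00108), and at 4 h it was also called without EcRi 4 h replicate 1 (0.70) or 3 (0.68).

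At 4 h GstE7 read 139, 149 and 121 in control and 159, 408 and 225 in EcRi prepupae, 1.8-fold higher (log2 0.85 ± 0.27, adjusted p = 0.0469). The groups did not overlap, but the highest EcRi value came from replicate 2 alone and without it the change was 0.48, below the fold limit. The call was also lost without control 4 h replicate 1 or 3 (adjusted p = 0.118 and 0.131). The call of GstE7 did not hold with the compared arrays only. GstE9 and GstE2 had smaller differences: GstE9 was 143 ± 9.13 in control and 227 ± 11.9 in EcRi prepupae (log2 0.67 ± 0.11, adjusted p = 0.00103), and GstE2 was below the floor on all 3 control arrays (86.8 ± 5.48) and 148 ± 33.9 in EcRi prepupae, at least 1.59-fold higher (adjusted p = 0.0176). GstE9 held with each array left out, while GstE2 was lost without EcRi 4 h replicate 1, at 0.49. With the floor at the 40th percentile none of the calls at 4 h of GstE7 (0.51), GstE9 (0.34) and GstE2 (0.02) held. Within the GstE cluster, 10 adjacent protein-coding genes that are all members, 6 (GstE2, GstE4, GstE5, GstE6, GstE7 and GstE9) had an EcRi effect above 0 at all 3 times and none below 0 at all 3, whereas 14.3% of all probe sets with a mean above the floor were above 0 and 17.2% below 0 at all 3 times. Effects of neighbours differed within the cluster, since GstE3 was called lower at 0 h while GstE2 and GstE4 on either side of it were 0.35 and 0.30 at that time (0.56 and 0.52 with both arrays that stand apart left out). The Epsilon gene GstE14, known in Drosophila as noppera-bo and needed for ecdysteroid production, was not called (effects of -0.45, 0.28 and 0.42), and it was highest on the 2 arrays that stand apart, at 505 and 482 where the other 16 read 248 to 418 (effects without them of -0.19, -0.01 and 0.42).

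**Figure D3:**
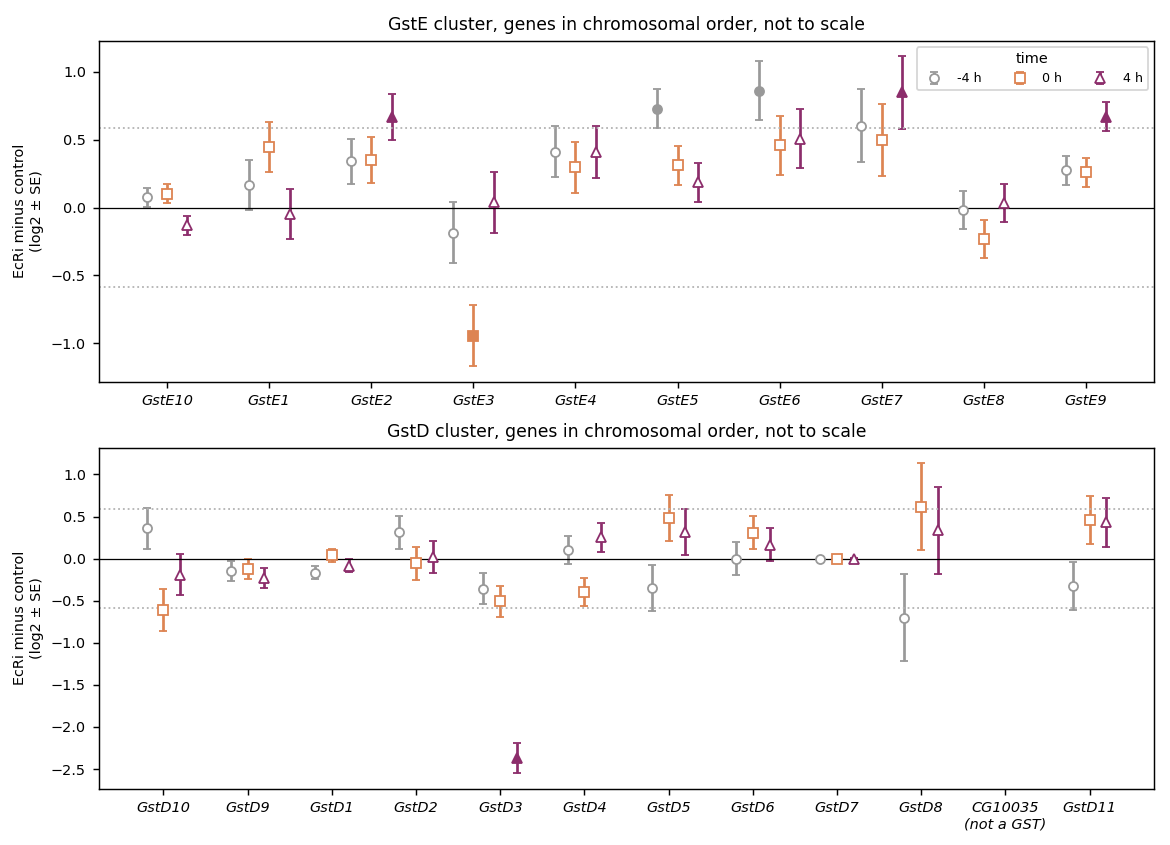
EcRi minus control difference (log2 ± SE, n = 3 arrays a group) of each gene of the GstE (top) and GstD (bottom) clusters in chromosomal order, with circles for -4 h, squares for 0 h and triangles for 4 h. Filled symbols were called and dotted lines mark 1.5-fold: 6 GstE genes lie above 0 at all 3 times, GstE3 falls below at 0 h, and GstD3 at 4 h (-2.37) is the only called GstD gene.

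The Omega and Sigma genes that were called were lower in EcRi prepupae. GstO3 read 2485, 2396 and 2168 in control and 1085, 1645 and 1838 in EcRi animals at 0 h, and 2317, 2077 and 1975 against 1045, 1401 and 1126 at 4 h. The EcRi arrays lay below all control arrays of the same time at both times. At 4 h the difference was 1.79-fold (log2 -0.84 ± 0.16, adjusted p = 0.00342) and held under every setting tried. At 0 h it was -0.66 ± 0.16 (adjusted p = 0.0218) but -0.43 without EcRi 0 h replicate 1, below the fold limit, and it was lost with the compared arrays only. GstO1 and GstO2 had effects of -0.74 and -0.52 at 4 h that were not called, the former short of the p limit (adjusted p = 0.279) and the latter short of the fold limit (adjusted p = 0.00972). A further GstO2 probe set differed from the brightest one, with 0.09 at 4 h in place of -0.52, so the value of GstO2 depends on the probe set. Without the 2 arrays that stand apart GstO1 was called lower at 4 h (adjusted p = 0.0527). At 4 h the fat body markers summed to 48619 to 51025 in control and 39468 to 41702 in EcRi arrays, and the Malpighian tubule markers to 1789.8 to 2073.2 and 1116.6 to 1362. Single markers did not all follow these sums. Of 5 fat body genes 2 had effects above 0 (1 called higher and 2 lower), as did 1 of 3 Malpighian tubule genes (1 called lower). The part of these markers in the lower Omega and Sigma values was not tested.

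GstS1, the Sigma-class gene and in adult flies an abundant protein of the flight muscle, read 2198, 2021 and 2057 in control and 584, 1672 and 839 in EcRi prepupae at 4 h. All EcRi arrays were lower, but replicate 2 lay close to the controls and the others were at most 839. The difference of 2.23-fold (log2 -1.16 ± 0.37, adjusted p = 0.0512) was lost without any of the 3 control arrays or EcRi replicate 1 or 3 (adjusted p of 0.105 to 0.221), and -0.32 with replicate 2 as the only EcRi array at that time. The call of GstS1 at 4 h was also lost with the compared arrays only. At that time 2 of 3 muscle markers were called higher in EcRi animals, and their part in the result was not tested. EcRi 4 h replicate 2 was above the mean of its group's other arrays by more than 1.5-fold in 11 of 67 members, GstT4, GstE3 and GstE7 among them, beside 11.5% of all probe sets. The Zeta genes GstZ1 and GstZ2, of a class that isomerises maleylacetoacetate in tyrosine breakdown, were not called, with 4 h effects of -0.29 ± 0.07 (adjusted p = 0.015) and -0.10 ± 0.16 (adjusted p = 0.788).

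**Figure D4:**
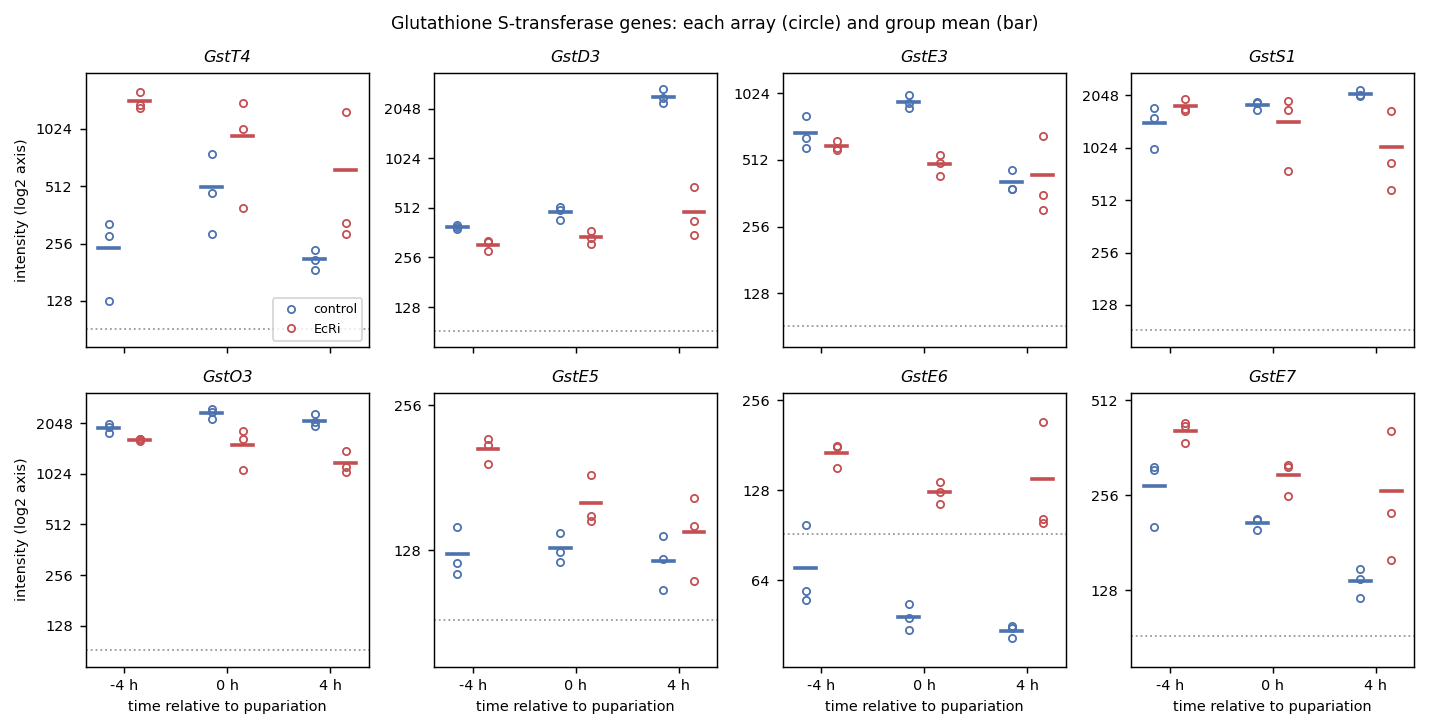
Intensity (log2 axis) of 8 GST genes in control (blue) and EcRi animals (red) at -4, 0 and 4 h, with a circle for each array, a bar for the mean of 3 arrays and a dotted line for the floor of 91.6. GstT4 is high on all EcRi arrays at -4 h, GstD3 reads between 2216 and 2688 on the control arrays at 4 h and at most 681 on EcRi arrays, and the EcRi arrays spread widely at 4 h.

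Among UGT genes the clearest difference was in Ugt301D1, which was lower in EcRi larvae and newly formed prepupae. Control arrays read 1342, 1378 and 1704 at -4 h, 1017, 1377 and 1185 at 0 h and then 296, 324 and 258 at 4 h. EcRi arrays read 361, 349 and 337, then 207, 299 and 306, then 187, 259 and 181 at the same times. Every control array at -4 and 0 h exceeded 1000, whereas the highest EcRi array of any time read 361, and EcRi larvae (337 to 361) lay just above control prepupae at 4 h (258 to 324). The effect was -2.07 ± 0.18 in larvae (adjusted p = 3.1e-05) and -2.15 ± 0.18 in prepupae of 0 h (adjusted p = 5.3e-06), 4.2-fold and 4.44-fold lower, and -0.50 ± 0.18 at 4 h, which is under 1.5-fold and was not called. In controls it fell by 2.02 on the log2 scale from 0 to 4 h (adjusted p = 6.4e-06), where 4.6% of all probe sets were called, whereas EcRi animals changed by -0.37 ± 0.18 (adjusted p = 0.422). The strains differed in this change by 1.65 ± 0.25 (adjusted p = 0.00208), and all 4 calls of the gene held under every setting and with each array left out.

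Ugt37A3 had a like course. Controls read 463, 618 and 927 as larvae, 839.8, 803 and 738 at pupariation and 195, 213 and 166 at 4 h. EcRi animals read 379.6, 325 and 264 as larvae, 143, 196 and 184 at pupariation and 146, 300.5 and 142 at 4 h. The groups were apart at -4 and 0 h and overlapped at 4 h. At 0 h EcRi animals were 4.59-fold lower (log2 -2.20 ± 0.29, adjusted p = 0.00028), and the control level then fell by 2.06 up to 4 h (adjusted p = 0.0005), with a difference between strains of 2.15 ± 0.41 (adjusted p = 0.0118). These 3 calls held under every setting, whereas the difference at -4 h, -1.01 ± 0.29 (adjusted p = 0.0964), was lost when any of 13 of the 18 arrays was left out. The call of Ugt37A3 at -4 h was also lost with the compared arrays only and with a replicate block. The other 7 Ugt37 genes were not called, with effects between 0.08 and 0.59 at 0 h that ran from -0.08 to 0.21 with both arrays that stand apart left out. At 0 h, when Ugt301D1 and Ugt37A3 were lower in EcRi animals, the midgut markers summed to 96144 to 105970 there and to 48428 to 57084 in controls, and the part of this difference was not tested.

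Ugt316A1 was lower in EcRi animals at 0 h, with 127, 304 and 336 against 569, 539 and 448 in controls. The groups did not overlap, but EcRi 0 h replicate 1 was far below the other EcRi arrays. The difference of -1.14 ± 0.33 (adjusted p = 0.0542) was -0.69 without that array (adjusted p = 0.154), and it was also lost without control 0 h replicate 1 or 2 (adjusted p = 0.174 and 0.15; 0.0059 to 0.334 over all settings). With the compared arrays only, the call of Ugt316A1 was lost as well. Ugt35A1 was the only UGT gene called higher and the only member called at all 3 times. Its control arrays read 140, 124 and 159.8 at -4 h, 65.7, 70.8 and 79.8 at 0 h and then 48.4, 45.1 and 45.7 at 4 h, below the floor at both prepupal times. In EcRi animals it read 267, 279 and 248 in larvae, 126, 181 and 217 at 0 h and later 121, 175 and 132, above all control arrays of the same time in each case. The larval difference was 1.88-fold (log2 0.91 ± 0.17, adjusted p = 0.00915), and against the floor EcRi prepupae were at least 1.86-fold higher at 0 h (adjusted p = 0.00517) and at least 1.54-fold higher at 4 h (adjusted p = 0.0263). The call at 4 h was lost without EcRi 4 h replicate 2 (0.47), and that at 0 h with the compared arrays only. With the floor at the 40th percentile none of the calls of Ugt35A1 held (0.57, 0.10 and 0 at -4, 0 and 4 h), and with the floor at the 5th percentile Ugt303A1 was also called higher at all 3 times (0.62, 0.83 and 0.72). With the floor at the 20th percentile Ugt35A1 was also the only member called between -4 and 0 h in controls, where it fell below the floor, by at least 0.62 on the log2 scale (adjusted p = 0.0768, lost when any of 11 arrays was left out), beside 3.11% of all probe sets (1.44% higher and 1.67% lower).

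**Figure D5:**
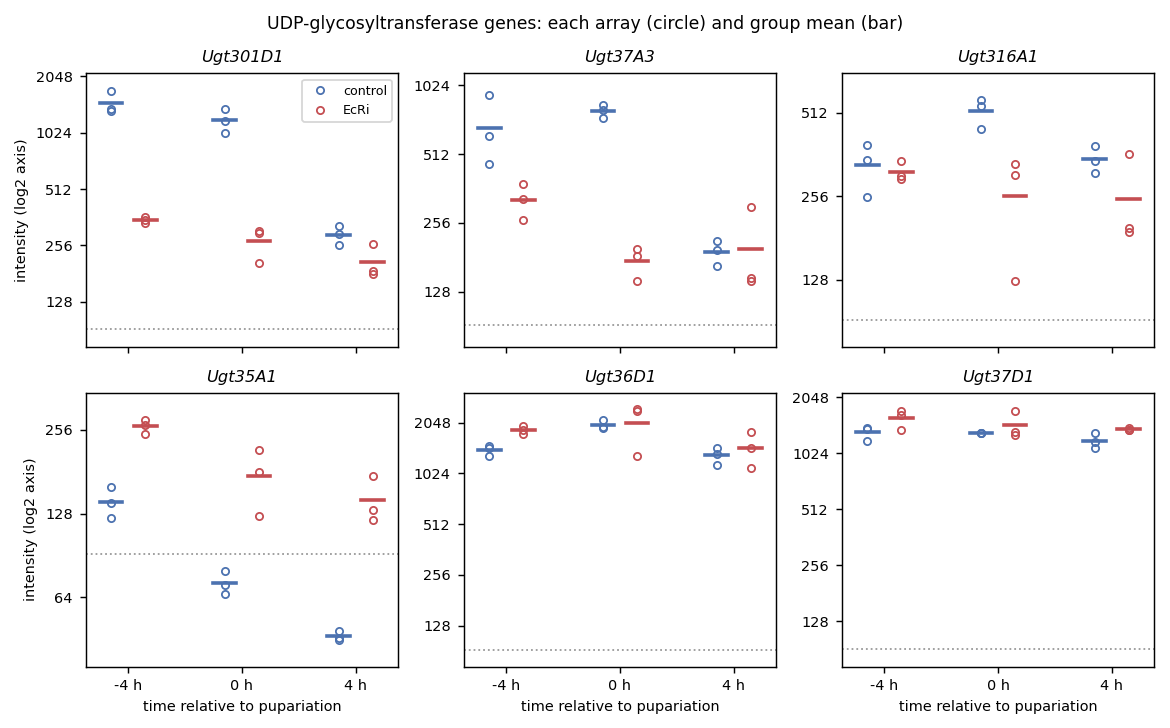
Intensity (log2 axis) of 6 UGT genes in control (blue) and EcRi animals (red) at -4, 0 and 4 h, with a circle for each array, a bar for the mean of 3 arrays and a dotted line for the floor of 91.6. Ugt301D1 and Ugt37A3 are low on EcRi arrays at 0 h and low in both strains at 4 h. Ugt35A1 is higher on all EcRi arrays than on control arrays of the same time, and the bright genes Ugt36D1 and Ugt37D1 were not called.

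The other 29 UGT genes were not called in any comparison, and for 17 of the 33 the mean lay below the floor, which limits what a change in them can show. The bright genes Ugt36D1 and Ugt37D1 had effects of 0.40, -0.01 and 0.12 and of 0.25, 0.13 and 0.21 at -4, 0 and 4 h, where Ugt36D1 gave 0.29 at 0 h once both arrays that stand apart were left out, with intervals at 4 h of -0.35 to 0.59 and -0.04 to 0.45. Ugt49B1 passed the fold limit at 4 h (0.66 ± 0.34) without passing the p limit (adjusted p = 0.217), and it was called, at an adjusted p of 0.00465, without the 2 arrays that stand apart. In a cluster on chromosome arm 3R that holds 10 UGT genes among 13 protein-coding genes, 2 members, Ugt35A1 and Ugt35B1, were above the floor on at least 9 arrays. Ugt35B1 was not called, with effects of -0.22, 0.27 and 0.20 (-0.05, 0.08 and 0.20 without the 2 arrays that stand apart).

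Few members were called for a change over time within EcRi animals. From -4 to 0 h limma called no GST or UGT gene and 0% of all probe sets, although 4 GST and 5 UGT genes had an unadjusted p under 0.05 (604 of all probe sets), and significance analysis of microarrays called none of the members. From 0 to 4 h GstD4 alone was called, beside 1.47% of all probe sets (0.687% higher and 0.78% lower). Without the 2 arrays that stand apart GstD4 was not called, and GstO1 (-0.86), GstS1 (-0.94) and Ugt36D1 (-0.77) were called lower. In that fit 144 of the 13966 probe sets were called higher and 713 lower. The strains differed in their change from -4 to 0 h in no member, beside 1.44% of all probe sets called (0.881% higher and 0.558% lower). For this change an unadjusted p under 0.05 was found in 7 GST and 4 UGT genes, beside 1965 of all 13966 probe sets. For the change from 0 to 4 h the strains differed in GstD3, Ugt301D1 and Ugt37A3, beside 2.65% of all probe sets (1.53% higher and 1.12% lower). These comparisons share arrays: those at 0 h enter both intervals.

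Genes that supply or follow the 2 enzyme families were examined as gene lists, whose counts stand against the same shares of all probe sets called at each time. Of 14 measured genes of glutathione synthesis and redox defence, 0, 1 and 2 were called at -4, 0 and 4 h (2.94%, 7.69% and 13.4% of all probe sets), all lower in EcRi animals, with median effects of -0.08, -0.28 and -0.28. The called genes were Cat, the peroxide-degrading catalase, with -0.84 ± 0.24 at 0 h (adjusted p = 0.0494), followed by -1.03 ± 0.24 at 4 h (adjusted p = 0.0118), and TrxT, a testis-specific thioredoxin, with -1.10 ± 0.35 at 4 h (adjusted p = 0.0484), when 4 of 6 testis markers were also lower. Gclc, the catalytic subunit of the enzyme that makes the first bond of glutathione, had effects between -0.10 and 0.03 and was not called. Among 4 genes of UDP-sugar supply, sgl, which makes UDP-glucuronate, was called lower at 0 h (-1.02 ± 0.26, adjusted p = 0.0257) while no other passed the test. Of 5 exporters of conjugates and foreign compounds, MRP was lower (-1.03 ± 0.24, adjusted p = 0.0106) and Mdr50 higher (0.59 ± 0.15, adjusted p = 0.0157) in EcRi animals at 4 h. None of 6 regulators of detoxification and oxidative stress was called, among them cnc, the fly counterpart of vertebrate Nrf2, and its partner maf-S, while Keap1 and Hr96 were below the floor on all arrays. Likewise none of 7 detoxifying hydrolases was called. Among 5 genes listed as other glutathione transferase relatives, gfzf was lower at 0 h (-1.27 ± 0.18, adjusted p = 0.00058) and Clic higher at -4 h (1.35 ± 0.34, adjusted p = 0.0542).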

How the data were processed

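RNA from whole animals was hybridised to 18 Affymetrix Drosophila Genome Arrays, 3 for each of 6 groups. The deposited intensity values had been normalized and summarised per probe set by the authors with dChip, and the sources used here do not name the probe-level model. The number of arrays limits the precision, as arrays give no depth.

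Values under the 20th percentile (91.6) were set to it, log2 was taken, and all 13966 probe sets were fitted over 6 groups with limma 3.58.1 (R 4.3.3; 12 residual degrees of freedom), without a block. Contrasts were EcRi minus control at each time, changes between adjacent times within a strain, and the interactions. The fit was tested on simulated data. All 67 members matched the RefSeq Release 6 gene table, used for names and gene order only.

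Every member called in a contrast was eligible for naming, with values on all arrays for the 8 largest EcRi effects and 4 largest control changes per family; GstE3 was named whatever its values, and up to 2 called genes per other list. Other members named, and Gclc, cnc, maf-S, Keap1, Hr96 and Syn, were chosen after their values were seen. The members and lists were chosen with earlier results of these data known. Alternatives were floors at the 5th and 40th percentiles, quantile normalization, brighter probe sets only, 1 probe set per gene, significance analysis of microarrays (SAM), a replicate block, a fit of only the arrays compared, each array left out, and the fit without the 2 arrays that stand apart. The fit without 4 arrays was chosen after seeing the data.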

Additional observations from a re-analysis of the deposited data

Results flagged for a closer look

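The EcRi effect differed between 0 and 4 h, by limma's interaction term over all probe sets, in GstD3 (-1.86, adjusted p = 0.000954), Ugt301D1 (1.65, adjusted p = 0.00208) and Ugt37A3 (2.15, adjusted p = 0.0118), each in log2 units. The effect on GstD3 was -0.51 at 0 h and -2.37 at 4 h, while the UGT genes were lower at 0 h and closer to controls at 4 h.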

How the results depend on the processing

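Of 29 called member effects, 13 were kept in every setting, 17 with each array left out, 26 without the 2 arrays that stand apart and 24 without 4 arrays, and SAM kept 24 of the 26 it could test. None reversed. Not every move in the counts of called genes is listed here. With the floor at the 5th percentile, the UGT counts were 7 in place of 4 at 0 h, 5 in place of 1 at 4 h and 2 in place of 1 for the control change from -4 to 0 h. That floor also added calls of Ugt303A1 at -4 h, GstE6 at 0 h, and GstD6 and GstE6 at 4 h. It further added a call of Ugt35A1 for the control change from 0 to 4 h. With the floor at the 40th percentile, the GST counts were 1 in place of 3 at -4 h, 3 in place of 6 at 4 h and 0 in place of 1 for the EcRi change from 0 to 4 h, and the UGT counts were 0 in place of 1 at 4 h and for the control change from -4 to 0 h. Fitting the compared arrays only gave 1 GST and 2 UGT genes at 0 h, 2 UGT genes at 4 h and 0 GST genes for the EcRi change from 0 to 4 h. SAM gave 2 UGT genes at 4 h, 1 GST and 2 UGT genes for the control change from -4 to 0 h, 4 GST genes for that from 0 to 4 h and 0 GST genes for the EcRi change from 0 to 4 h. Without the 2 arrays that stand apart (control -4 h replicate 1 and EcRi 0 h replicate 1), 1 GST gene was called at 0 h, 2 UGT genes at 4 h, and 2 GST and 1 UGT genes for the EcRi change from 0 to 4 h. In that fit 4 GST genes were called higher and 4 lower at 4 h, and 3 UGT genes lower for the control change from 0 to 4 h. Without 4 arrays (these 2 and EcRi 4 h replicates 1 and 3, which leaves 1 EcRi array at 4 h that is assumed to vary like the other groups), GST counts were 4 for the control change from 0 to 4 h, 2 for the EcRi change, and 1 and 4 for the interactions from -4 to 0 h and from 0 to 4 h. The cause of these moves was not tested.

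Between control and EcRi arrays of one time, deviations from the group mean correlated at -0.47 to 0.299 for arrays with the same replicate number. For arrays with other numbers they reached 0.541. Deviations within a group sum to 0 and pairing across times was not examined, so these values cannot settle whether replicate numbers pair samples. With a replicate block the GST count for the EcRi change from 0 to 4 h was 0 in place of 1 (GstD4), and the call of Ugt37A3 at -4 h was lost. With each array left out, the GST counts ranged over 1 to 4, 1 to 5 and 4 to 9 at -4, 0 and 4 h, and the UGT counts over 2 to 3, 3 to 4 and 1 to 3. For the control changes from -4 to 0 h and from 0 to 4 h the ranges were 0 to 0 and 2 to 3 (GST) and 0 to 1 and 2 to 3 (UGT), for the EcRi changes 0 to 0 and 0 to 1 in both families, and for the interactions 0 to 1 and 1 to 2 (GST) and 0 to 0 and 2 to 2 (UGT). Changes below the floor, where 17 UGT means lay, could not be measured.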

Other observations

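Of the 67 members, 25 (37.3%) were highest on control -4 h replicate 1 or EcRi 0 h replicate 1, beside 37.9% of all probe sets, and 18 of these were UGT genes. Members lowest on either array numbered 14 (20.9%), beside 35% of all probe sets, and 10 of these were GST genes.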
